A study of Mus musculus with 6 samples.

Results

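The genes of major histocompatibility complex (MHC) class II antigen presentation were followed in mouse brain tumors. The set had 7 members, chosen by symbol with earlier results of these data known. All 7 were among the 16729 genes of the deposited count table. They were the invariant chain Cd74, the classical chains H2-Aa, H2-Ab1 and H2-Eb1, the peptide editor chains H2-DMa and H2-DMb1, and the coactivator Ciita. MHC class II molecules are pairs of an alpha and a beta chain that carry peptides of engulfed proteins to the cell surface, where CD4+ T cells read them. The invariant chain holds the peptide groove closed until the endosome, and the H2-DM heterodimer then helps to exchange its last fragment for a peptide. Transcription of these genes depends on Ciita, which binds no DNA itself but docks on a fixed set of promoter factors, and interferon gamma induces it. In the brain, resident microglia carry little class II at rest, whereas dendritic cells, B cells and activated macrophages and microglia carry much more.

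RNA-seq was made of tumors that grew from mG7080 cells, a gliomasphere culture from a mouse model of glioblastoma, after injection of 500000 cells into the brain. Hosts were C57BL/6 mice by the labels (C57BL/6J by the methods), 6 to 8 weeks old by the methods, and were either wild type (WT) or lacked Esm1 (KO), the gene of the vascular secreted protein Endocan. The injected cells were the same in both groups and kept their own Esm1, and RNA came from whole frozen tumors, so that each library mixed tumor and host RNA. There were 3 libraries per group (WT 1, WT 2, WT 3 and KO 1, KO 2, KO 3), and the comparison asks how loss of host Esm1 moved class II expression. The study describes its tumors as those of separate mice, and the labels number the tumors within each group.

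Total counts ran from 17632070 to 22241832 per library, and 1 count stood for 0.0445 to 0.0570 CPM (a library's counts scaled to its total with edgeR's TMM factors). Esm1, the deleted gene, was read 25, 21 and 82 times in the WT libraries and 1, 24 and 4 times in KO 1, KO 2 and KO 3. The library labelled KO 2 therefore held as much Esm1 as WT 1 and WT 2, which leaves its label in doubt, although the tumor cells also carry the gene. On the first principal component (85.5% of the variance of log2 CPM) KO 2 lay at -33.8, between WT 1 (-18.0) and WT 3 (-67.1), whereas KO 1 and KO 3 lay at 85.7 and 119. Results are therefore given for all 6 libraries as labelled, without KO 2, and for the 4 libraries that the column names of the study's own results table list (WT 1, WT 2, KO 1 and KO 3). Every direction drawn from KO 2 rests on its label.

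All 7 class II genes stood far below the WT libraries in KO 1 and KO 3 and above them in the library labelled KO 2. The WT mean exceeded the mean of KO 1 and KO 3 by 11.2 to 12.5 times for the invariant chain and the 3 classical chains, by 5.45 and 5.11 times for H2-DMb1 and Ciita, and by 2.55 times for H2-DMa. KO 2 exceeded the WT mean by 1.67 to 1.99 times. In bulk tumors, fewer class II positive cells and less class II RNA per cell cannot be told apart.

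Cd74, the invariant chain, was the most abundant member, with 572, 467 and 375 CPM in WT 1, WT 2 and WT 3. Among the tumors of KO hosts it had 65.4 CPM in KO 1, 926 CPM in KO 2 and 18.8 CPM in KO 3. The WT libraries lay within 1.53 times of each other, and the KO libraries lay on both sides of them. These values rested on 361 counts in KO 3, the smallest number, and 20793 in KO 2, so counting error was small against the distance between libraries (KO 3 exact 95% Poisson interval 16.9 to 20.8 CPM). All such intervals cover counting error only.

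The classical chains moved with it. H2-Aa, the alpha chain of the I-A molecule, had 269, 291 and 228 CPM in the WT libraries and 34.2, 497 and 8.23 CPM in KO 1, KO 2 and KO 3. H2-Ab1, the beta chain of I-A, had 227, 255 and 219 CPM in WT and 29.7, 464 and 7.76 CPM in KO. H2-Eb1, the beta chain of I-E, had 213, 228 and 185 CPM in WT and 27.3, 411 and 8.23 CPM in KO. For each of the 3 chains KO 3 was lowest, KO 1 lay 3.31 to 4.15 times above KO 3 and still under every WT library, and KO 2 was highest. H2-Ea, the alpha partner of H2-Eb1, was absent from the table, as was its pseudogene entry H2-Ea-ps, and C57BL/6 mice are known not to express that chain.

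The editor chains differed from each other in depth. H2-DMb1 had 18.7, 23.1 and 24.9 CPM in the WT libraries and 5.25, 37.2 and 2.92 CPM in KO 1, KO 2 and KO 3. Its partner H2-DMa had 41.7, 34.7 and 37.7 CPM in WT and 15.3, 72.2 and 14.5 CPM in KO. H2-DMa was thus nearly level between KO 1 and KO 3 (ratio 1.05, with overlapping counting intervals of 13.5 to 17.2 and 12.9 to 16.3 CPM), whereas the ratio was 1.8 for H2-DMb1 and 3.48 for Cd74. The annotated locus of H2-DMa overlaps Brd2 on the opposite strand, and whether reads of Brd2 entered its counts was not tested.

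Ciita, the coactivator of the whole set, had 25.8, 30.0 and 25.5 CPM in the WT libraries. It had 6.45 CPM (113 counts) in KO 1, 49.8 CPM in KO 2 and 4.17 CPM (80 counts) in KO 3. As for every other member, KO 3 was lowest, KO 1 next and KO 2 highest, and the WT libraries lay between within 1.18 times of each other.

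**Figure D1:**
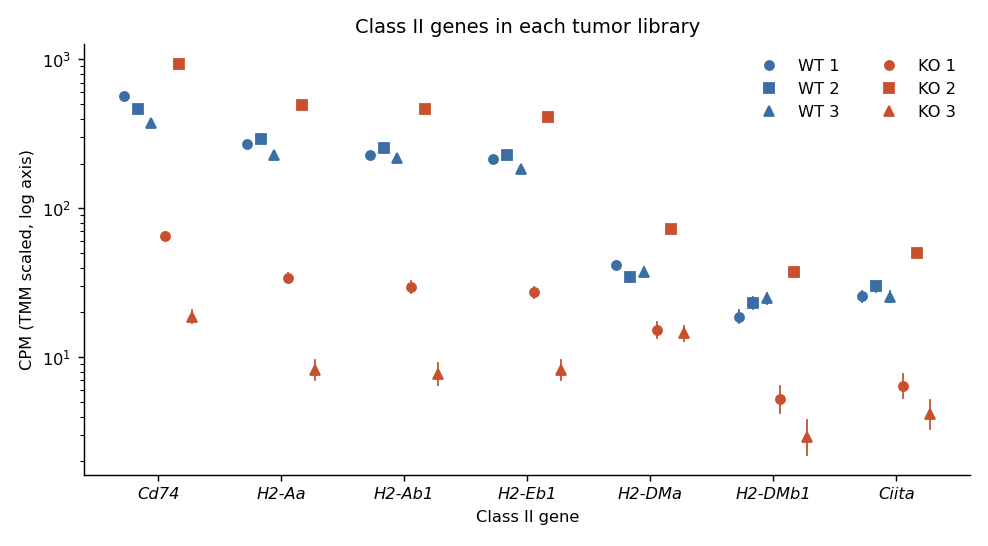
Level of each class II gene in each library, in CPM on a log axis, with WT libraries in blue, KO libraries in orange and vertical lines for exact 95% Poisson intervals. For all 7 genes KO 1 and KO 3 lie under the 3 WT libraries and the library labelled KO 2 lies above them.

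Each side of this pattern was common among genes, and both sides together were not. Of the 16166 genes tested over 6 libraries, 40.4% had KO 1 and KO 3 both below all 3 WT libraries and 24.1% had KO 2 above all 3. Both held at once for 5.52% of genes (892) and for all 7 class II genes. The pattern was taken from the members themselves, and 6 of them correlated with each other at 0.930 to 1.00 over the libraries. Their count is therefore a description and not 7 separate observations. Over all genes tested, the ratio of KO 2 to the WT mean had a median of 1.01, and its 5th and 95th percentiles were 0.676 and 1.64, under the lowest class II value of 1.67 (H2-DMb1).

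As labelled, with 3 WT against 3 KO libraries, no class II gene passed the test. WT means were 472 ± 98.7 CPM for Cd74, 263 ± 31.7 for H2-Aa and 234 ± 19.1 for H2-Ab1 (SD, n = 3), and KO means were 337 ± 511, 179.7 ± 275 and 167 ± 257 CPM (SD, n = 3). The KO spread exceeded the KO mean for 6 of the 7 genes and nearly reached it for H2-DMa (34.0 ± 33.1 CPM). Log2 fold changes, KO minus WT, lay between -0.58 (H2-DMb1, SE 0.91) and -0.18 (H2-DMa, SE 0.65), with a median of -0.51 and adjusted p from 0.641 to 0.842 by edgeR's quasi-likelihood test (Benjamini-Hochberg adjusted over the genes tested). The median was -2.17 by limma-voom, which averages logs, and -2.38 with the replicate number as a block, also with 0 of the 7 called. The 95% interval of Cd74 ran from -3.62 to 2.61, so it held large changes in both directions. Among all 16166 genes the same test called 0.0% lower (0 genes), with 4385 at an unadjusted p under 0.05, of which 0 were class II members. The exact test of edgeR and limma-voom also called 0 of the 7, and DESeq2 called 0 of the 2 for which it gave a p (Cd74 and H2-DMa), since it set the other 5 to NA.

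Without KO 2, all 7 were called lower (28.3% of 16279 genes were, and 24.5% were called higher). The log2 fold changes were then -3.48 for Cd74 (SE 0.60), -3.63 for H2-Aa (0.63), -3.64 for H2-Ab1 (0.59) and -3.55 for H2-Eb1 (0.54). They were -1.35 for H2-DMa (0.15), -2.44 for H2-DMb1 (0.31) and -2.35 for Ciita (0.25), and the adjusted p of the 7 genes lay between 0.00798 and 0.0107 (edgeR).

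Over WT 1, WT 2, KO 1 and KO 3, all 7 were again lower in KO (13.9% of 16183 genes were called lower and 2.87% higher). Log2 fold changes were -3.63 for Cd74 (SE 0.66), -3.73 for H2-Aa (0.71), -3.70 for H2-Ab1 (0.67) and -3.65 for H2-Eb1 (0.61), with adjusted p between 0.0343 and 0.0376 (edgeR). H2-DMb1 (-2.37, SE 0.37), Ciita (-2.41, SE 0.31) and H2-DMa (-1.37, SE 0.20) had smaller changes, each with an adjusted p of 0.0343 (edgeR). At a fold change above 4 as well, 6 members passed, all but H2-DMa (6.23% of genes were lower by that rule). The median of the 7 genes was -3.63, against -0.03 over all genes tested, whose 5th percentile was -2.51. The 95% interval of H2-DMa, from -1.88 to -0.85, lay above those of H2-Aa (-5.55 to -1.92) and Cd74 (-5.32 to -1.95), and the difference itself was not tested. Leaving out KO 3 kept the calls of H2-Aa, H2-Ab1 and H2-Eb1 and ended those of Cd74 (adjusted p = 0.0797), Ciita (0.0734), H2-DMb1 (0.105) and H2-DMa (0.146), and leaving out KO 1 ended that of H2-DMa (0.0841, edgeR).

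**Figure D2:**
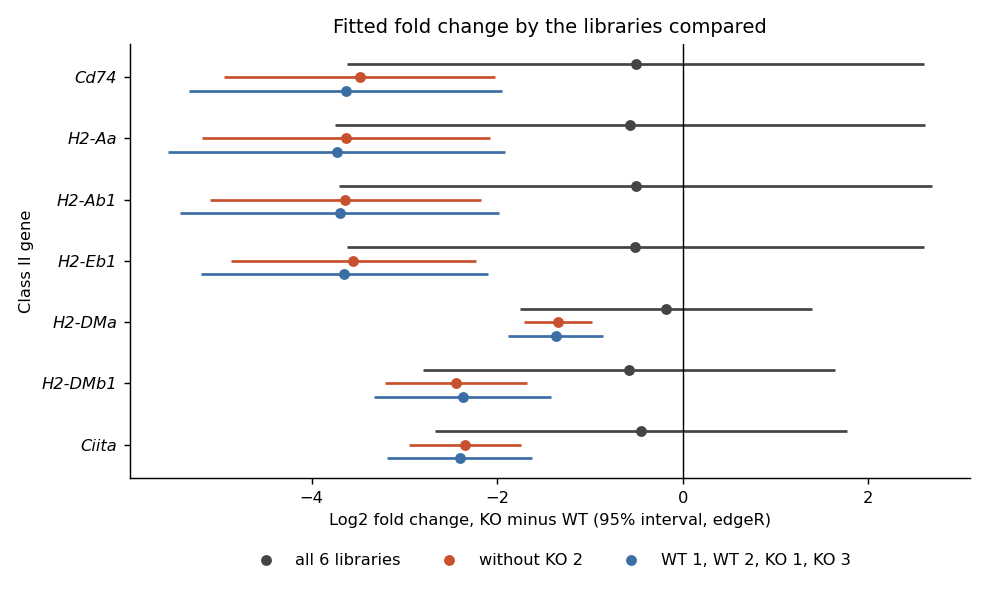
Fitted log2 fold change (KO minus WT) of each class II gene with its 95% interval by edgeR's quasi-likelihood fit, for all 6 libraries, without KO 2, and for WT 1, WT 2, KO 1 and KO 3. All 7 intervals span 0 over 6 libraries, and all 7 lie below 0 in both comparisons that leave out KO 2.

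Levels of different genes were compared in FPKM, the authors' values scaled to gene length and library size. In the WT libraries Cd74 led with 354 ± 66.2 FPKM, followed by H2-Aa (262 ± 35.2), H2-Ab1 (209 ± 22.7) and H2-Eb1 (133 ± 16.0). H2-DMa (24.4 ± 1.42), H2-DMb1 (18.5 ± 3.07) and Ciita (5.39 ± 0.659) followed (SD, n = 3). Ranges over the WT libraries overlapped between Cd74 and H2-Aa and between H2-Aa and H2-Ab1, although every single library had Cd74 over H2-Aa over H2-Ab1. The other neighbours did not overlap.

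This order was identical in WT 1, WT 2, WT 3, KO 1 and KO 2. In KO 3 alone H2-DMa stood second, with 7.57 FPKM, after Cd74 (11.5) and before H2-Aa (6.65), H2-Ab1 (5.62) and H2-Eb1 (4.26). Ratios between FPKM values describe the same point. H2-Aa over H2-Ab1, the 2 chains of the I-A dimer, stayed between 1.16 and 1.32 in all 6 libraries, and Cd74 over H2-Aa stayed between 1.21 and 1.73. H2-DMa over H2-Aa was 0.0769 to 0.106 in the WT libraries, 0.0937 in KO 2, 0.288 in KO 1 and 1.14 in KO 3. Ciita over H2-Aa was 0.0191 to 0.0223 in WT and 0.0200 in KO 2, and 0.0376 and 0.101 in KO 1 and KO 3. H2-DMb1 over H2-DMa, the 2 chains of the editor, was 0.581 to 0.860 in WT, 0.665 in KO 2, 0.443 in KO 1 and 0.259 in KO 3. The ratio of the I-A chains thus stayed inside the WT range in every KO library, while in KO 1 and KO 3 the share of H2-DMa was above and that of H2-DMb1 relative to H2-DMa below every WT library.

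**Figure D3:**
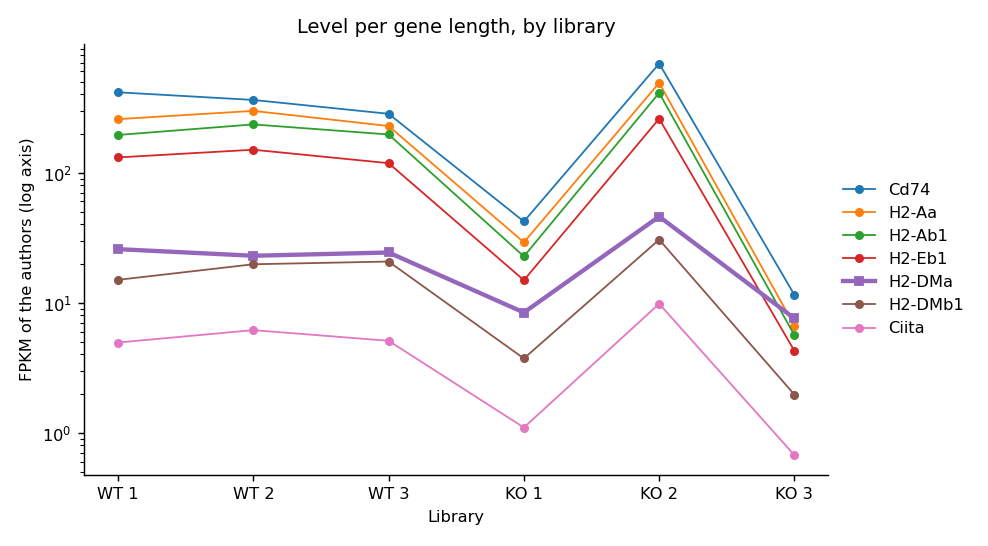
FPKM of each class II gene in each library on a log axis, with 1 line per gene joining its values. Cd74 and the classical chains keep their order in every library, and the line of H2-DMa, drawn thick, crosses those of H2-Aa, H2-Ab1 and H2-Eb1 in KO 3.

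The other class II chains of the table, which were not members, are expressed at low level. H2-Oa and H2-Ob form H2-DO, which restrains the editor, and H2-DMb2 and H2-Eb2 are related copies of H2-DMb1 and H2-Eb1. Summed, the 4 genes had 21.3, 11.3 and 14.6 CPM in the WT libraries and 4.45, 52.2 and 2.39 CPM in KO 1, KO 2 and KO 3. For 4 of the 4 KO 1 and KO 3 lay below and KO 2 above all WT libraries, and the summed level in KO 2 was 3.32 times the WT mean. H2-Ob was called lower over the 4 libraries (log2 fold change -2.23, adjusted p = 0.0345, edgeR), 3 of the 4 were called lower without KO 2, and none of the 4 was called over all 6. Among all genes, 13.9% were called lower over the 4 libraries and 28.3% without KO 2. H2-Eb2 had 2 counts in KO 3. The paper's methods keep only uniquely mapped reads, which would drop reads shared between copies, so values of the DMb and Eb pairs are uncertain.

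Promoters of class II genes carry the X1, X2 and Y boxes, on which RFX, CREB and NF-Y assemble before Ciita docks. RefSeq promoters (GRCm38.p6) covered H2-Aa, H2-Eb1, H2-DMb1 and H2-DMa among the members. The 150 bases before the start are printed for the 3 of these that hold a Y box core. Capitals mark TGATTGG (CTGATTGG where the preceding base is C) and, upstream of it, AACNGATG in H2-Eb1 and H2-DMb1 and TGACGTCA, the letters of a cAMP response element, in H2-Aa. The windows are chr17:34287824-34287973 (minus strand) for H2-Aa, chr17:34305717-34305866 (plus strand) for H2-Eb1 and chr17:34153041-34153190 (plus strand) for H2-DMb1.
H2-Aa: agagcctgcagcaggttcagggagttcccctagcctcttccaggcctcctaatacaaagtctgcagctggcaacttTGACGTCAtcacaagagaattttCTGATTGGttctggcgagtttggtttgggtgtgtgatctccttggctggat
H2-Eb1: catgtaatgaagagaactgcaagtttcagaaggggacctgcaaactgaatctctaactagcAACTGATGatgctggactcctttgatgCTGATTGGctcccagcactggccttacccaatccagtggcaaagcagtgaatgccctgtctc
H2-DMb1: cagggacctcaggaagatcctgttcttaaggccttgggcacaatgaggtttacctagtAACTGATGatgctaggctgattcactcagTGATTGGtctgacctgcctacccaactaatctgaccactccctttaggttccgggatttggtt

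The core TGATTGG lay at -50 to -44 in H2-Aa, at -61 to -55 in H2-Eb1 and at -63 to -57 in H2-DMb1, counted from the annotated start. Windows ran from 250 bases before to 50 bases after the start and were searched on both strands. TGATTGG was in 7 of 9 promoters of class II genes, members and others together, and in 7.82% of the 32851 promoters searched. Promoters of chromosome 18, which holds Cd74, were left out of this search. The longer CTGATTGG was in 4 of the 9 (4.10% of the promoters searched), and the CCAAT that TGATTGG contains on the other strand was in 8 (37.4%). AACNGATG was in 4 of the 9 (2.32%), ACAGATG in 2 (5.01%), TGACGTCA in 1 (1.79%) and TGCGTCA in 0 (2.12%). In H2-Eb1 and H2-DMb1 the bases between AACNGATG and TGATTGG numbered 20 and 21. AACNGATG stood 15 to 25 bases before TGATTGG in 5 of the 32851 promoters (0.0152%), of which 4 belonged to the class II genes H2-DMb1, H2-DMb2, H2-Eb1 and H2-Eb2. The last belonged to BC051142, whose window starts 57.2 kb beyond the end of H2-Eb2 on the same chromosome. TGATTGG, AACNGATG, TGACGTCA and this spacing were chosen after the sequences had been read, so these shares are descriptions. Neither of the 2 windows of H2-DMa held TGATTGG, which says only that these letters are not in the windows. Their 150 bases before the start, chr17:34122682-34122831 and chr17:34125368-34125517, lie inside the annotated locus (34119541 to 34139101), whose other parts were not searched.

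The factors that assemble on these boxes had smaller log2 fold changes than the members over the 4 libraries, a difference that was not tested. Over all 6 this did not hold, since Nfya stood at -0.78. Of 7 genes for RFX, NF-Y and Creb1, 1 was called lower over the 4 libraries, a share near the 13.9% of all genes. Without KO 2, 4 of the 7 were called lower, against 28.3% of all genes. The gene called over the 4 libraries was Nfya, a subunit of NF-Y, with 58.0, 77.9 and 69.4 CPM in WT and 29.4, 60.7 and 31.0 CPM in KO 1, KO 2 and KO 3 (log2 fold change -1.18, adjusted p = 0.0357, edgeR). Nfyb, its partner, had the highest log2 fold change of the list over the 4 libraries, 0.50 (adjusted p = 0.0826), and without KO 2 it was called higher (0.52, adjusted p = 0.0190, edgeR). Rfx5, whose values were seen before it was named here, had 53.2, 59.5 and 55.1 CPM in WT and 36.1, 55.8 and 38.4 CPM in KO. The list's median was -0.39 over the 4 libraries, and 0 of its genes were called over all 6.

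The interferon gamma axis, which acts upstream of Ciita, had 3 of 9 genes called lower over the 4 libraries and 0 called higher. Among all genes tested, 13.9% were called lower and 2.87% higher. Irf1, a factor that acts on Ciita, had 126, 197 and 178 CPM in WT and 21.6, 233 and 10.05 CPM in KO 1, KO 2 and KO 3 (log2 fold change -3.36, adjusted p = 0.0343, edgeR). Socs1, a feedback inhibitor, changed by -2.63 (adjusted p = 0.0348, edgeR). Ifng, the cytokine, had 1.43, 1.55 and 1.33 CPM in WT, 0.342 CPM (6 counts) in KO 1, 2.14 CPM in KO 2 and 0 counts in KO 3, which allows up to 0.156 CPM. Its change was not called over the 4 libraries (adjusted p = 0.0741) and was called without KO 2 (log2 fold change -3.07, adjusted p = 0.0301, edgeR). Jak1, a kinase of the receptor, had the highest log2 fold change of the list, 0.63 (adjusted p = 0.125, edgeR). Without KO 2 5 of the 9 were called lower and 1 (Jak1) higher, over all 6 libraries 0 were called, and KO 2 lay above all WT libraries for 7 of them. Of all genes, 28.3% were called lower and 24.5% higher without KO 2, and 24.1% had KO 2 above all WT libraries.

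Peptide supply and loading had 2 of 8 genes called lower over the 4 libraries, against 13.9% of all genes. Cathepsin S (Ctss), which cleaves the invariant chain, had 389, 435 and 403 CPM in WT and 136, 523 and 98.3 CPM in KO 1, KO 2 and KO 3 (log2 fold change -1.83, adjusted p = 0.0343, edgeR over the 4 libraries). Ifi30, a reductase that opens disulfide bonds of antigens, changed by -2.86 (adjusted p = 0.0343, edgeR). March1, a ubiquitin ligase that removes class II from the surface, had 25.03, 15.3 and 15.1 CPM in WT and 32.0, 24.3 and 40.2 CPM in KO, and its change of 0.83 was not called (adjusted p = 0.0917, edgeR). Without KO 2 it was called higher (0.97, adjusted p = 0.0285, edgeR). The list then had 5 genes called lower and 1 higher, against 28.3% and 24.5% of all genes.

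Partners in T cell contact moved in part, with 3 of 6 genes called lower over the 4 libraries, against 13.9% of all genes. Of 6 genes, Cd80 (log2 fold change -2.31, adjusted p = 0.0415), Cd86 (-2.33, adjusted p = 0.0343), both costimulatory ligands, and Lag3, an inhibitory receptor for class II (-1.85, adjusted p = 0.0343), were called lower over the 4 libraries (edgeR). Cd40 had a log2 fold change of -3.25 without passing (adjusted p = 0.0509), and passed without KO 2 (adjusted p = 0.0155, edgeR). There 5 of the 6 genes were called lower, against 28.3% of all genes. Cd4, the coreceptor for class II, had 10.4, 7.29 and 8.58 CPM in WT, 22.9 CPM in KO 1, 10.1 in KO 2 and 3.64 in KO 3. Its KO libraries thus lay above, within and below the WT range, and it was not called.

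MHC class I, the pathway that presents peptides of the cell itself, also had KO 1 and KO 3 below and KO 2 above the WT libraries, although its order within WT differed. Its 9 genes summed to 3266, 4242 and 4450 CPM in WT and 574, 5373 and 283 CPM in KO 1, KO 2 and KO 3. Over the 4 libraries 8 of 9 were called lower, from Tapbp (log2 fold change -1.61) to Psmb8 (-4.06), with adjusted p between 0.0343 and 0.0430 (edgeR), and Psmb9 (-3.57) was not (adjusted p = 0.0553). Without KO 2 all 9 were called lower, and over all 6 libraries 0 were. Among all genes, 13.9% were called lower over the 4 libraries and 28.3% without KO 2. Nlrc5, the class I counterpart of Ciita, had 197, 213 and 196 CPM in WT and 23.05, 322 and 4.01 CPM in KO (log2 fold change -3.93). The summed class II members over the summed class I genes gave 0.246 to 0.419 in the WT libraries, 0.320 in KO 1, 0.457 in KO 2 and 0.228 in KO 3.

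Markers of the cells that could carry class II moved unequally with it. The 9 microglia markers, among them Tmem119, P2ry12 and Sall1, summed to 590, 482 and 486 CPM in WT and 522, 648 and 466 CPM in KO 1, KO 2 and KO 3, so that KO 1 lay inside the WT range and KO 3 just under it. For 4 of the 9 both KO 1 and KO 3 were below all WT libraries, and for the other 5 (P2ry12, Siglech, Fcrls, Gpr34 and Cx3cr1) both were above. Over the 4 libraries 1 (Olfml3) was called lower and 0 higher, and without KO 2 it was 3 lower and 2 higher (P2ry12 and Siglech). All genes tested had shares of 13.9% lower and 2.87% higher over the 4 libraries, and of 28.3% and 24.5% without KO 2. The class II members summed to 2.25 to 2.76 times the microglia markers in WT, to 3.79 times in KO 2, and to 0.352 and 0.139 times in KO 1 and KO 3.

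Monocyte and macrophage markers were lower in KO 1 and KO 3 as a sum, though not each of them. The 13 genes summed to 345, 464 and 480 CPM in WT and 128, 483 and 100.4 CPM in KO 1, KO 2 and KO 3, and 8 of 13 were called lower over the 4 libraries. Relative to this sum the class II members stood at 2.28 to 3.96 in WT, 5.09 in KO 2, 1.44 in KO 1 and 0.643 in KO 3. Lyz2 was the largest part of this sum in WT, with 187, 262 and 278 CPM there and 40.0, 274 and 22.6 CPM in KO. Both KO 1 and KO 3 were below all WT libraries for 9 of the 13. Mrc1 was above them in both (5.93 and 8.02 CPM, against 5.19, 2.64 and 4.79 in WT), and Itgam lay within the WT range. F13a1 was above the WT range in KO 3 only. Chil3 had no count in KO 3. Over the 4 libraries 13.9% of all genes were called lower. At the protein level, the paper stained tumor sections for microglia, macrophage and T cell markers. It reports no significant difference between tumors of WT and KO hosts.

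Dendritic cell markers (9 genes) summed to 80.5, 122 and 92.9 CPM in WT and 23.7, 91.9 and 22.5 CPM in KO, and 3 (Xcr1, Itgax and Ccr7) were called lower over the 4 libraries. Much of this sum in WT and KO 2 was Itgax, with 53.6, 90.1 and 63.7 CPM in WT and 5.42, 62.5 and 1.51 CPM in KO. For 6 of the 9 both KO 1 and KO 3 were below all WT libraries. Flt3 went the other way, with 6.14, 3.98 and 4.98 CPM in WT and 8.33, 5.07 and 8.23 CPM in KO. Xcr1, a chemokine receptor that defines cross-presenting dendritic cells, had 0 counts in KO 1 and KO 3, which allows up to 0.171 and 0.156 CPM, compared with 0.999, 1.40 and 1.23 CPM in WT and 2.05 CPM in KO 2. B cell markers were sparse, at 6.12 to 8.63 CPM summed over 5 genes in WT and 3.88, 10.6 and 2.08 CPM in KO, 1 (Cd79b) was called lower, and Pax5 and Fcmr were absent from the table. The 8 T cell markers summed to 28.9 to 32.0 CPM in WT and 7.02, 47.1 and 4.84 CPM in KO, and 7 were called lower over the 4 libraries. Without KO 2 the genes called lower were 8 of 13 for monocytes and macrophages, 5 of 9 for dendritic cells, 3 of 5 for B cells and 8 of 8 for T cells, and 0 of these were called higher. The shares over all genes were 13.9% lower over the 4 libraries, and 28.3% lower and 24.5% higher without KO 2.

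Several other marker lists also differed between the libraries. The 10 neuron markers summed to 1821 to 5523 CPM in WT, 12374 in KO 1, 4758 in KO 2 and 15234 in KO 3. Myelinating oligodendrocyte markers summed to 1284 to 3238 CPM in WT and 7299, 3109 and 3758 CPM in KO 1, KO 2 and KO 3, and the 6 proliferation genes to 929 to 1653 CPM in WT and 83.3, 1033 and 9.89 CPM in KO. Endothelial markers differed little as a sum, at 139 to 174 CPM in WT and 191, 161 and 141 CPM in KO. Single genes went both ways. Without KO 2, Tek (log2 fold change 0.71) and Flt1 (0.84) were called higher and 0 lower, and Kdr (-0.70) was not called (edgeR). The paper reports lower Pecam1, Cldn5 and Cdh5 by qRT-PCR in tumors of KO hosts, and these were not called here. Alas2, the red cell gene of the table (Hba-a1 and Hbb-bs were absent), had 2.32 to 11.8 CPM in WT and 8.96, 3.16 and 4.37 CPM in KO. Over the 4 libraries 5 of the 6 proliferation genes were called lower and 0 of the neuron markers higher, and without KO 2 it was 6 of 6 lower and 9 of 10 higher (edgeR). All genes tested had shares of 13.9% lower and 2.87% higher over the 4 libraries, and of 28.3% and 24.5% without KO 2. Over all 6 libraries 0 genes of the cell type lists were called. The part of these marker differences in the class II values was not tested.

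**Figure D4:**
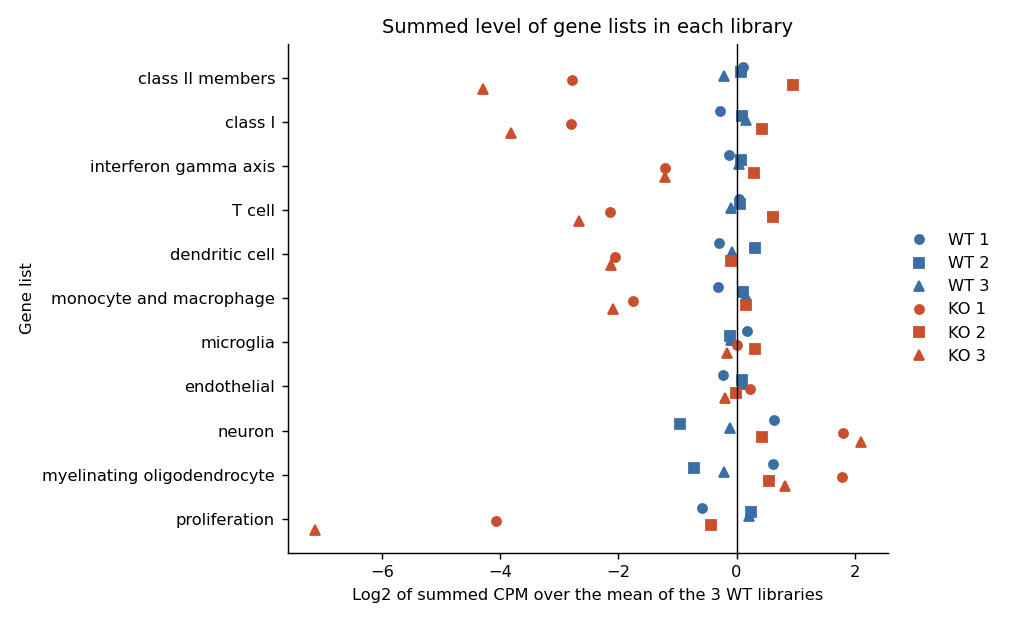
Summed CPM of gene lists in each library as log2 of the ratio to the mean of the 3 WT libraries, with WT in blue and KO in orange. In KO 1 and KO 3 the proliferation genes lie furthest below WT, followed by class II and class I, microglia and endothelial markers lie near 0, and neuron markers lie above.

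Within the genome the class II chains stand together. On chromosome 17 of GRCm38, in the positive direction, H2-DMa spans 34119541 to 34139101, H2-DMb1 34153072 to 34160230, H2-Ab1 34257689 to 34269419 and H2-Eb1 34305867 to 34316674, and H2-Aa runs on the minus strand from 34282744 to 34287823. Ciita lies on chromosome 16 (10480059 to 10528418). The annotated locus of H2-DMa overlaps Brd2 on the opposite strand and that of Ciita overlaps Dexi, and whether the counting used strand was not given in the sources used here. Brd2 itself had 244, 278 and 291 CPM in WT and 244, 286 and 238 CPM in KO 1, KO 2 and KO 3.

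The class II region, with 100000 bases on either side, held 21 genes of the table that lay wholly inside it. Genes that only reached into it were left out. All 9 class II genes in it had KO 1 and KO 3 below and KO 2 above the WT libraries, as did the 5 class I pathway genes that lie among or beside them, and 6 and 4 of these were called lower over the 4 libraries. The share over all genes was 5.52% for this pattern and 13.9% for such calls. Of the 7 other genes 0 were called (edgeR), the median log2 fold change was -0.12 and 1 showed the pattern. That gene, BC051537 (-1.75, adjusted p = 0.0815), shares its annotated span with H2-Oa on the other strand. Genes next to the class II chains, such as Brd2 (-0.12, SE 0.23) and Col11a2 (-0.05, SE 0.42), were thus close to 0, and both were named after their values were seen.

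**Figure D5:**
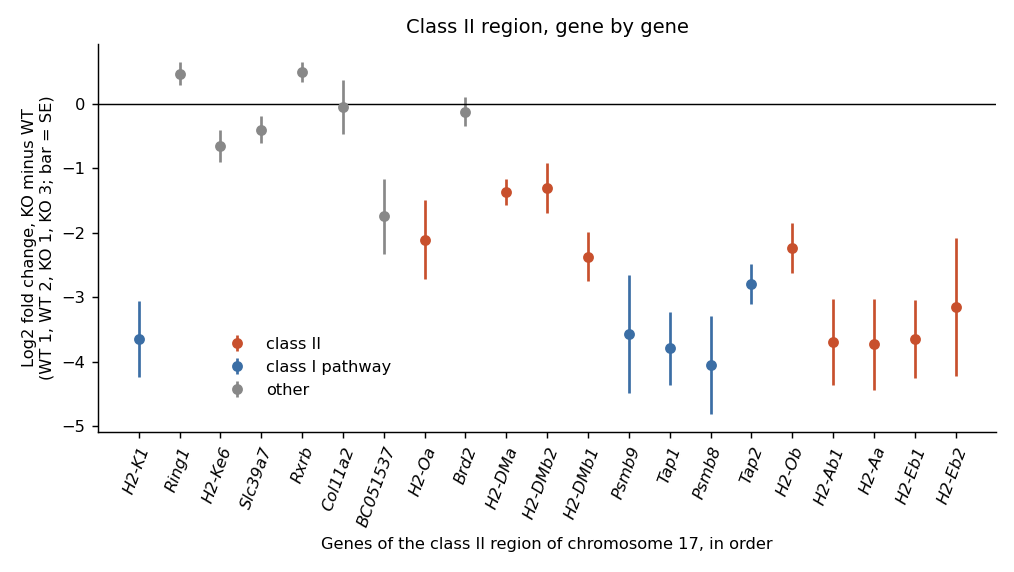
Log2 fold change (KO minus WT over WT 1, WT 2, KO 1 and KO 3, bars = SE) of the 21 genes that lie wholly within the class II region of chromosome 17 and its flanks, in order along it and evenly spaced. Class II genes (orange) and class I pathway genes (blue) lie below 0 throughout, and the 7 other genes (grey) lie between -0.65 and 0.49 except BC051537.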

How the data were processed

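RNA-seq reads of 6 tumors, 3 per group by the sample labels, were counted per gene by the authors, and the deposited table holds these counts without normalization, together with FPKM that the authors computed per gene and library. The submitters' notes name CASAVA 1.8.2, edgeR and mm10, whereas the paper's methods name HTSeq and hg38, and the library kit also differs between labels and methods. Mouse gene symbols and whole counts were used as deposited. No gene with counts in fewer than 4 libraries, or with all counts under 5, is listed. Columns of the authors' normalized values, fold changes, p-values and ranks were not used.

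The fits used edgeR 4.0.16 in R 4.3.3 (filterByExpr with minimum count 10 and minimum total 15, TMM, glmQLFit and glmQLFTest), and p-values were adjusted over all genes. A gene was called at an adjusted p under 0.05, and the SE is the log2 fold change over the square root of F. CPM used TMM factors over all 6 libraries. Fits were also run on simulated counts with a single small dispersion shared by all genes. That setting had far less spread than the KO libraries, so its outcome says nothing about error or power in these data. Tables and figures used Python 3.11.15, pandas 2.3.3 and matplotlib 3.10.9. Gene positions came from GENCODE (GRCm38) and promoters from RefSeq (GRCm38.p6). Alternatives were RLE and upper quartile scaling, other count filters, DESeq2 1.42.0, the exact test, limma-voom (limma 3.58.1), a replicate block and each library left out.

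The members, gene lists and comparisons were chosen with earlier results of these data known. Named were all 7 members, each gene of the class II lists called in either comparison, otherwise the lowest and highest of a list, summed cell type lists, and the 10 genes most like the members. Reads were not analysed here, and some named genes of the lists are not reported here.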

Additional observations from a re-analysis of the deposited data

How the results depend on the processing

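Over all 6 libraries the number of class II genes called stayed at 0 under every scaling and filter and by the exact test and limma-voom (DESeq2 gave a p for 2 of the 7, neither called), and ran from 0 to 7 with 1 library left out, the 7 being without KO 2 (log2 fold changes -3.48, -3.63, -3.64, -3.55, -1.35, -2.44 and -2.35 for Cd74, H2-Aa, H2-Ab1, H2-Eb1, H2-DMa, H2-DMb1 and Ciita). The median log2 fold change of the 7 genes, -0.51, was -2.17 by limma-voom, which averages logs. Directions that turned without passing were H2-DMa without KO 1 (0.17) and, without KO 3, Cd74 (0.051), H2-Ab1 (0.056), H2-Eb1 (0.048), H2-DMa (0.18) and Ciita (0.032). Genes called in all numbered 0, against 1206 by DESeq2 (431 lower, 775 higher) and 121 by the exact test, and 0 to 8594 with 1 library left out. With the replicate block 0 genes and 0 class II genes were called (smallest adjusted p 0.0650 over all genes, median of the 7 class II genes -2.38). Deviations of same-numbered libraries correlated at 0.587, 0.618 and -0.236 for numbers 1, 2 and 3, so the numbers were not taken as pairs.

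Over the 4 libraries class II calls numbered 7 under every scaling, filter and test and 3 (without KO 3) to 7 with 1 library left out, where the lone library of a group is assumed to vary like the other group. The 2708 genes called became 1081 above 4-fold, 5839 by DESeq2 and 6212 by the exact test, and 252 to 8748 with 1 library left out (252 without KO 3, 1009 without KO 1, 8748 without WT 1). The cause of these shifts was not tested.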

Other observations

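Genes whose log2 CPM ran closest to the mean of the 6 class II members other than Ciita, over the 6 libraries, came from several roles. The 10 highest of 15297 genes with a mean of at least 1 CPM were Prph (an intermediate filament of neurons), Slamf8 and Clec5a (receptors of myeloid cells), Ncf1 (a subunit of the phagocyte oxidase), Nuak2, Ankrd44, Hpse (heparanase), Ripk3 (a kinase of necroptosis), 6430503K07Rik and Il1a (a cytokine), with Pearson's r from 0.996 to 0.999. The 6 points share their libraries and their depth, and 890 genes (5.82%) reached 0.95, so these values are descriptions. Prph had 29.6, 24.3 and 25.9 CPM in WT and 2.74, 63.7 and 0.729 CPM in KO 1, KO 2 and KO 3. Slamf8 had 8.47, 8.53 and 7.84 CPM in WT and 1.20, 13.8 and 0.521 CPM in KO. By size the genes were far apart, since the fitted log2 fold change over the 4 libraries was -3.98 for Prph and -0.45 for Ankrd44. Ciita ranked 39th, with r = 0.993, and the 6 members correlated with each other at 0.930 to 1.00.

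Cd74 lies apart from the other class II genes, on chromosome 18 of GRCm38 from 60803848 to 60812652 on the plus strand.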
